A study of Rhizophagus irregularis DAOM 181602=DAOM 197198 with 30 samples.

Results

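Among the 30282 gene models of the fungus Rhizophagus irregularis listed in the deposited tables, 13188 carry no description: no protein domain or family, no annotation note and no best-hit protein. Of these, 26 stood higher after 1 h of GR24, a synthetic strigolactone, and they are described here by protein ID and followed through the later times and the root set. The models were chosen by their measured levels. Each had to have a mean level over the GR24 libraries at 1 h of at least 3 CPM (reads per 1e+06 gene reads of a library) and of at least 2 times the sum of the acetone mean and 0.2 CPM. The lowest GR24 library also had to lie above the highest acetone library, and the mean acetone level at 14 d had to be under 8 times the acetone level at 1 h and more than 1/4 of it. The columns for gene ontology biological process and for gene-database text were also checked, and both were empty for all 26. The same held for 13048 of the 13188 undescribed models. No gene name or role is therefore given to any of the 26.

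Rhizophagus irregularis is an arbuscular mycorrhizal fungus. It depends on a plant host, grows inside roots and delivers phosphate to the plant in exchange for carbon. Strigolactones are hormones that roots release into soil, and germinating spores of these fungi answer them with faster respiration and branching of the hyphae before any contact with a root. Genomes of arbuscular mycorrhizal fungi hold many predicted genes with no recognised relative elsewhere, some of which are real lineage-specific genes and some of which may be prediction errors.

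All groups are germinating spores of the strain DAOM197198. In the time course, batches of 80000 spores were germinated for 2 d in liquid M medium in the dark and then given GR24 at 1e-06 M or acetone diluted 1 in 1000, and were collected after 1 h, 2 d, 7 d or 14 d. In the root set, 60000 spores lay for 14 d on a cellophane membrane over carrot hairy roots (Daucus carota DC1, a cultured root line), or under the same conditions without roots. The libraries used number 3 with GR24 and 2 with acetone at 1 h, 2 and 3 at 2 d, 2 and 2 at 7 d, 3 and 3 at 14 d, and 3 titled root exudates and 2 titled controls. Because each library is bulk RNA of whole spores, a change in the share of spores or hyphae of a kind and a change of RNA per cell cannot be told apart.

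Gene reads ran from 5786080 to 11812317 per library, so that 3 reads correspond to less than 0.52 CPM in each. Whether replicates are separate cultures is not said in the labels, and p-values refer to the spread between the samples alone, which may be technical. Sample titles and table headings disagree on which root libraries are the controls. The titles were followed, and with the headings every direction between the root groups would be the opposite. Reads that match several models made up between 0.122% and 1.09% of a library, while for all 26 models 100% of the reads matched 1 model only.

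The 26 models are short, with a median length of 528 bases and a range from 183 to 1689 bases. Other undescribed models that reached 3 CPM after 1 h of GR24 had a median of 510 bases, all 13188 undescribed models one of 363 bases, and described models that met the same numerical conditions one of 909 bases. Lengths of 23 of the 26 are multiples of 3, or 88.5%, beside 91.8% of all undescribed models and 91.7% of all models. Names beginning with gm1 were borne by 10 of them, fgenesh1_kg by 9, CE by 4 and fgenesh1_pg by 3. The names of models 335317 and 343036 end in the same contig name, remain_c13151, which no other model in the tables carries. The numbers that follow fgenesh1_kg in these names differ. What either part of a name stands for is not given in the sources used here. The shared contig name is therefore not read as a shared place in the genome. Whether the models lie near each other or overlap was not tested, since the tables used here give no coordinates.

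The levels at 1 h chose the models and are given as a description, with no test. The ratio of the GR24 mean to the acetone mean plus 0.2 CPM ran from 2.01 for models 24579 and 33865 to 17.8 for model 343310. Just under the bound of 2 lay the undescribed models 17439, at 1.97, and 35020, at 1.94. At the bound of 3 CPM, model 34882 (3.14 CPM) and model 17020 (3.33 CPM) were just inside, and 336098 (2.89 CPM) and 12213 (2.73 CPM) just outside. A further 7 undescribed models met the conditions at 1 h but not the bounds at 14 d, 6 with too low an acetone level there and 1, model 339876, with too high a level of 56.8 CPM. Among all models tested at 1 h, 7.05% were called higher and 3.39% lower with GR24, a contrast from which nothing is read for the 26.

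Compared per length, as RPKM, which divides the CPM value by the model length in kilobases, levels after 1 h of GR24 ran from 4.28 to 1085. Model 338925 had a mean of 1085 RPKM, rank 88 of 30282 models. Model 349160 followed with 350 RPKM (rank 482), then model 345070 with 326 RPKM (rank 546), model 343310 with 149 RPKM (rank 1553) and model 343036 with 131 RPKM (rank 1816). At the other end, model 96153 had 4.28 RPKM (rank 11695). Summed over the 26 models, the level after 1 h was 967 to 1153 CPM with GR24 and 343 to 409 CPM with acetone. The sum was 354 to 370 CPM with GR24 against 209 to 231 CPM at 2 d, 316 to 319 against 198 to 201 CPM at 7 d and 256 to 309 against 226 to 238 CPM at 14 d. At each of the later times the GR24 libraries stayed above the acetone libraries in this sum, to which model 349160 alone gave more than 77 CPM in every GR24 library. Without that model, left out after seeing the data, the other 25 summed to 200 to 215 CPM with GR24 against 185 to 208 CPM with acetone at 2 d, and to 180 to 191 against 171 to 172 CPM at 7 d. At 14 d they summed to 172 to 208 CPM with GR24 and 202 to 217 CPM with acetone, so that the groups overlapped at 2 d and 14 d.

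For most of the models the difference seen at 1 h was not called at later times, and for 3 of them it was called at every later time. With GR24 against acetone, edgeR called 3 of 25 models tested higher and 0 lower at 2 d, where 1.02% of all models tested were called higher and 1.13% lower. At 7 d it called 4 of 23 higher and 1 lower, against 4.31% and 2.12% of all models. At 14 d it called 3 of 24 higher and 2 lower, against 1.29% and 1.95% of all models, in a comparison whose acetone mean the selection had bounded. As shares of the models tested, the higher calls made up 12.0% at 2 d, 17.4% at 7 d and 12.5% at 14 d. At an unadjusted p under 0.05, 8 models were higher and 1 lower at 2 d, where 2414 of all 14704 models tested passed in either direction. DESeq2 called 2 of the models higher and 0 lower at 2 d.

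The median log2 fold change of the models was 0.32 at 2 d, 0.24 at 7 d and 0.06 at 14 d, while that of all models tested was 0.00 at each time. The count of higher calls at 2 d was 5 without a filter on low counts and 1 without GR24 2 d replicate 3. At 7 d it was 2 with DESeq2 and 7 without GR24 7 d replicate 3, and the lower count there was 2 without that library. At no later time was a call in either direction made for 20 of the 26 models. Of these, 17 gave no call for a GR24 effect shared by the later times either. The shares of all models called at every later time, or at none, were not computed. At each single later time most of all models tested gave no call. The count of 20 is therefore not read as a trait of these models.

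**Figure D1:**
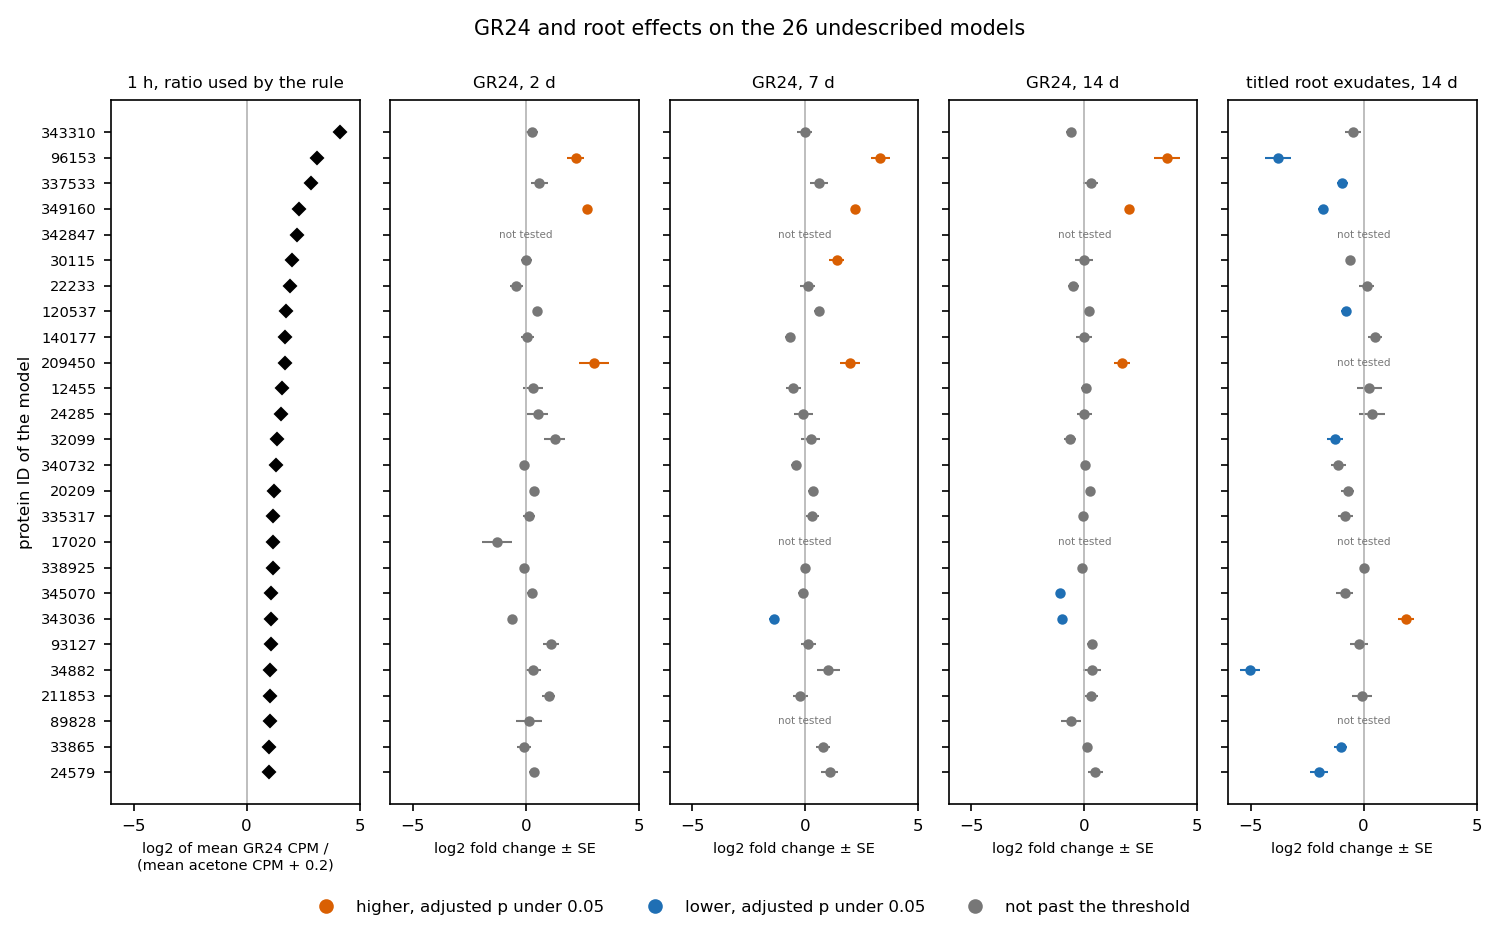
Log2 ratio at 1 h used for the selection (diamonds, log2 of the mean GR24 CPM over the mean acetone CPM plus 0.2) and edgeR log2 fold changes ± SE (circles) for GR24 against acetone at 2 d, 7 d and 14 d and for titled root exudates against titled controls, 1 line per model. Orange is higher and blue lower at an adjusted p under 0.05. Models 96153, 349160 and 209450 are orange at each later time with GR24, while most other models lie near 0 in those panels. In the root panel the median of the models tested is -0.75.

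Model 349160 (474 bases) held its difference most tightly. Its levels at 1 h were 176, 170 and 152 CPM with GR24 and 33.3 and 32.5 CPM with acetone. At 2 d they were 153 and 155 CPM with GR24 and 24.7, 25.1 and 23.5 CPM with acetone. Every GR24 library was thus above every acetone library by a wide margin. edgeR's log2 fold change was 2.7 ± 0.0947 (SE), with an edgeR adjusted p of 1.07e-11.

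At 7 d the levels of model 349160 were 128 and 135 CPM with GR24 and 29.6 and 26.8 CPM with acetone. At 14 d they were 83.4, 77.5 and 101 CPM with GR24 and 24.1, 22.6 and 20.5 CPM with acetone. The acetone libraries lay between 20.5 and 33.3 CPM over all times and were highest at 1 h. The GR24 libraries were lowest at 14 d. On the log2 scale the fold change was 2.20 ± 0.115 at 7 d (edgeR adjusted p = 1.74e-21) and 1.95 ± 0.104 at 14 d (edgeR adjusted p = 7.37e-10). The effect at 14 d was smaller than that at 2 d by a log2 difference of -0.75 ± 0.144 (edgeR adjusted p = 0.0117). Without GR24 2 d replicate 3 this difference was -0.72 and not past the threshold.

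Model 96153 (1077 bases) was low with acetone at all times. Its levels at 1 h were 3.55, 3.53 and 6.76 CPM with GR24 and 0.414 and 0.244 CPM with acetone. At 2 d they were 5.15 and 4.25 CPM with GR24 and 0.629, 1.27 and 1.08 CPM with acetone. The groups did not overlap at either time. Its log2 fold change at 2 d was 2.21 ± 0.382 (edgeR adjusted p = 0.00556). Without GR24 2 d replicate 3 it was 2.32 and not past the threshold.

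At 7 d model 96153 stood at 8.44 and 6.60 CPM with GR24 and at 0.346 and 0.931 CPM with acetone. At 14 d it stood at 3.32, 1.79 and 4.13 CPM with GR24 and at 0, 0.431 and 0.190 CPM with acetone. The acetone group at 14 d rests on 6 reads in all against 95 with GR24, and the library at 0 allows a level of up to 0.482 CPM by counting error alone. All GR24 libraries again lay above all acetone libraries. The log2 fold change was 3.32 ± 0.416 at 7 d (edgeR adjusted p = 2.98e-08) and 3.66 ± 0.558 at 14 d (edgeR adjusted p = 0.000413). The effect at 14 d minus that at 2 d was 1.45 ± 0.751 and did not pass (edgeR adjusted p = 0.402).

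Model 209450 is the shortest of the 26, with 183 bases, and its calls rest on few reads. Its levels at 1 h were 2.53, 3.01 and 7.13 CPM with GR24 and 1.14 and 1.10 CPM with acetone. At 2 d they were 1.29 and 2.40 CPM with GR24, from 35 reads, and 0.314, 0.0975 and 0.325 CPM with acetone, from 6 reads. Both groups were lower at 2 d than at 1 h, and they did not overlap at either time. edgeR's log2 fold change at 2 d was 3.00 ± 0.660 (edgeR adjusted p = 0.0249). The call was lost without GR24 2 d replicate 3, where the value was 2.40, and without acetone 2 d replicate 3, where it was 3.34, and DESeq2 gave no adjusted p.

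At 7 d the levels of model 209450 were 3.84 and 5.04 CPM with GR24 and 1.21 and 1.02 CPM with acetone. At 14 d they were 2.72, 3.18 and 2.72 CPM with GR24 and 0.963, 0.970 and 0.761 CPM with acetone. The GR24 libraries were above the acetone libraries at both times. On the log2 scale the fold change was 1.98 ± 0.437 at 7 d (edgeR adjusted p = 0.00125), a call that DESeq2 did not make at a value of 1.98, and 1.66 ± 0.356 at 14 d (edgeR adjusted p = 0.00821). Without acetone 14 d replicate 3 the value at 14 d was 1.54 and not past the threshold.

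**Figure D2:**
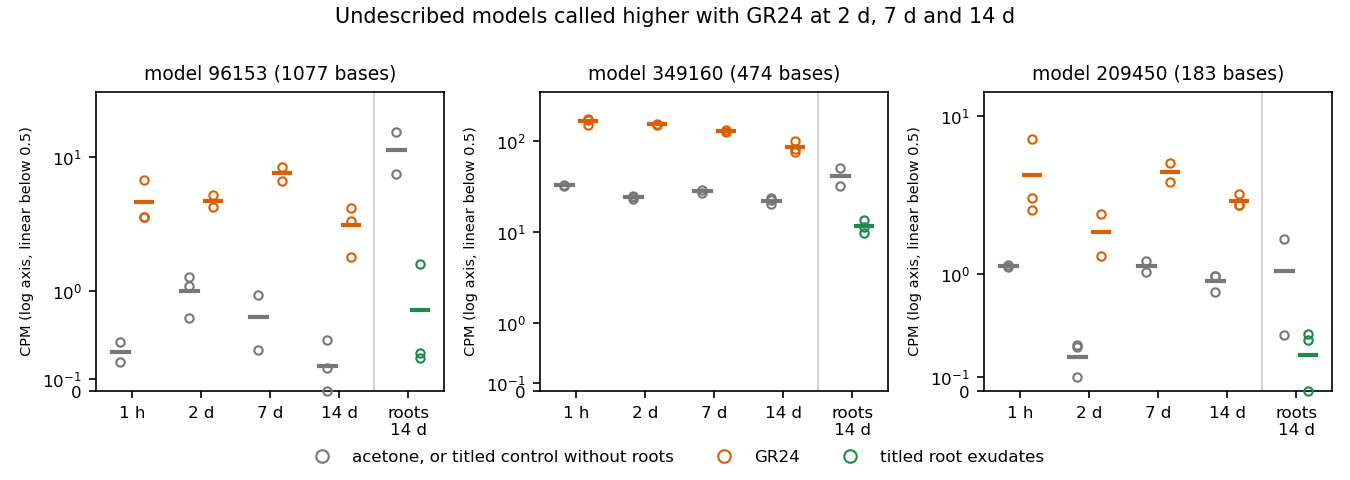
CPM per library of models 96153, 349160 and 209450, on a log axis that is linear below 0.5 CPM, at each time with acetone (grey) and GR24 (orange), and in the root set with titled controls (grey) and titled root exudates (green). Circles are libraries and bars group means. In each panel the GR24 libraries lie above the acetone libraries at all times, and for 96153 and 349160 the titled root exudate libraries lie below the titled controls.

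A joint fit of 2 d, 7 d and 14 d contains no 1 h library, but its acetone mean at 14 d had been bounded by the selection. For 349160 the mean GR24 effect shared by these times was 2.28 ± 0.0614 (edgeR adjusted p = 3.08e-20). It was 3.05 ± 0.276 for 96153 (edgeR adjusted p = 1.44e-08) and 2.21 ± 0.263 for 209450 (edgeR adjusted p = 2.03e-06). These 3 models were singled out by calls on the same libraries, so the joint values add no separate support. Of the 26 models 6 were called higher and 1 lower for this shared effect, against 4.40% and 5.14% of all models tested. The other 3 higher calls were of smaller size. Model 24579 had a shared effect of 0.64 ± 0.188 (edgeR adjusted p = 0.0294), model 120537 one of 0.44 ± 0.119 (edgeR adjusted p = 0.0181) and model 20209 one of 0.31 ± 0.0991 (edgeR adjusted p = 0.0434).

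The call for model 20209 was made under 8 of 20 alternatives, with values between 0.28 and 0.34 where it was lost. That for 24579 was lost without replicate 1 of GR24 at 2 d (0.64), replicate 2 of GR24 (0.44) or of acetone (0.55) at 7 d, and replicate 3 of GR24 (0.59) or replicate 2 of acetone (0.57) at 14 d. That for 120537 was lost with the replicate number as a block, at 0.39. At single times model 120537 stood at 15.8 and 14.2 CPM with GR24 and 11.0, 8.87 and 12.7 CPM with acetone at 2 d, and at 13.8 and 13.9 against 8.64 and 8.89 CPM at 7 d. At 14 d its levels of 14.0, 17.5 and 24.3 CPM with GR24 overlapped the 13.2, 18.0 and 16.0 CPM with acetone.

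The clearest 1 h pulse was that of model 343310 (614 bases). Its levels at 1 h were 92.5, 95.7 and 87.0 CPM with GR24 and 6.63 and 3.29 CPM with acetone. At 2 d they were 5.73 and 4.81 CPM with GR24 and 4.72, 3.80 and 4.99 CPM with acetone. The GR24 libraries had come down to 0.0574 of their 1 h mean while acetone stayed at 0.907 of its own, and the groups overlapped. Its log2 fold change at 2 d was 0.27 ± 0.271 and did not pass (edgeR adjusted p = 0.684).

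At 7 d model 343310 stood at 4.82 and 4.44 CPM with GR24 and 5.88 and 3.72 CPM with acetone. At 14 d it stood at 4.43, 3.28 and 3.94 CPM with GR24 and at 5.14, 6.36 and 5.8 CPM with acetone. At 14 d all GR24 libraries were below all acetone libraries. The log2 fold change there was -0.60 ± 0.222, which did not pass (edgeR adjusted p = 0.17).

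Models 337533, 22233 and 24285 also came down with GR24 from over 17 CPM at 1 h. Model 337533 had 26.3, 24.6 and 29.0 CPM with GR24 and 4.25 and 2.68 CPM with acetone at 1 h. At 2 d it had 4.87 and 3.33 CPM with GR24 and 2.83, 3.61 and 1.73 CPM with acetone. Its groups overlapped at 2 d, where the log2 fold change was 0.60 ± 0.358 (edgeR adjusted p = 0.437).

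Model 22233 had 28.2, 22.9 and 22.0 CPM with GR24 and 5.90 and 6.71 CPM with acetone at 1 h, and 3.15 and 3.98 CPM against 3.93, 6.14 and 4.77 CPM at 2 d. Model 24285 had 24.0, 18.4 and 17.6 CPM with GR24 and 6.94 and 6.59 CPM with acetone at 1 h, and 2.29 and 1.39 CPM against 1.42, 1.56 and 0.867 CPM at 2 d. In model 24285 the acetone libraries came down with the GR24 libraries, to 0.189 of their 1 h mean, whereas in model 22233 they stayed at 0.784. Neither passed at 2 d, with log2 fold changes of -0.43 ± 0.298 (edgeR adjusted p = 0.517) and 0.52 ± 0.476 (edgeR adjusted p = 0.639).

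Model 338925, the one with the highest level per length at 1 h, had 384, 367 and 283 CPM with GR24 and 168 and 141 CPM with acetone. At 2 d it had 57.3 and 70.4 CPM with GR24 and 65.3, 70.2 and 77.4 CPM with acetone. Both groups were lower than at 1 h and overlapped. Its later log2 fold changes had the smallest errors of the models without a call, -0.10 ± 0.116 at 2 d, 0.01 ± 0.125 at 7 d and -0.11 ± 0.0847 at 14 d (edgeR adjusted p = 0.720, 0.993 and 0.650).

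**Figure D3:**
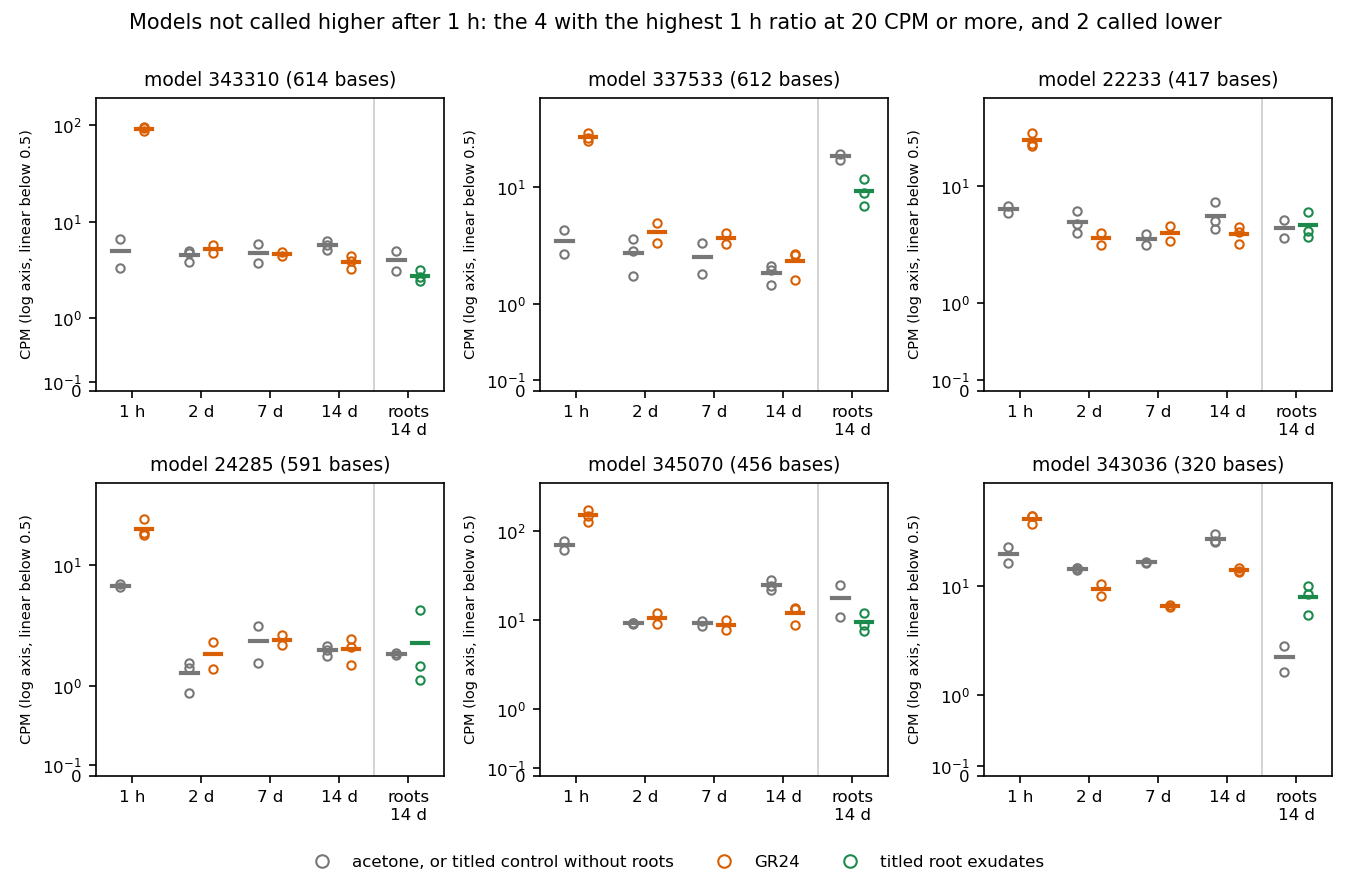
CPM per library, on a log axis that is linear below 0.5 CPM, of the 4 models with the highest 1 h ratio among those with at least 20 CPM after 1 h of GR24 and no later higher call (343310, 337533, 22233 and 24285) and of the models called lower later (345070 and 343036). Circles are libraries and bars group means, with acetone or titled controls in grey, GR24 in orange and titled root exudates in green. GR24 libraries stand apart at 1 h, as the selection required. Later the GR24 and acetone groups overlap or GR24 lies below, although single GR24 libraries lie above every acetone library. At 2 d, for instance, model 337533 has a GR24 library at 4.87 CPM and at most 3.61 CPM with acetone.

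Changes of the group means from 1 h to 2 d are described here by ratios, without a test, for all 26 models, including those still called at 2 d. From 1 h to 2 d the GR24 mean came down at least 2-fold in 15 models, went up 2-fold in 0 and stayed within 2-fold in 11. In 8 of the 15 the acetone mean stayed within 2-fold of its 1 h level, with ratios of 0.581 to 1.18. These were 343310, 337533, 342847, 22233, 340732, 20209, 17020 and 343036. In the other 7 of the 15 the acetone mean came down as well, to between 0.133 and 0.472 of its 1 h level. These were 209450, 24285, 32099, 338925, 345070, 211853 and 89828.

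In 7 further models the GR24 mean at 2 d was 0.945 to 1.5 times that at 1 h, while the acetone mean was 2.37 to 5.82 times its 1 h level. These were 96153, 30115, 120537, 140177, 34882, 33865 and 24579. In model 30115, for instance, GR24 libraries had 5.88, 5.30 and 6.26 CPM at 1 h and 7.73 and 7.12 CPM at 2 d, while acetone libraries had 0.829 and 1.71 CPM at 1 h and 5.35, 8.87 and 7.92 CPM at 2 d. Here the acetone libraries had come up to the GR24 level. The median ratio of 2 d to 1 h over the 26 models was 0.417 with GR24 and 0.847 with acetone, beside 1.04 and 1.04 over all models tested. The selection favours high GR24 and low acetone values at 1 h, so that part of these ratios follows from it.

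Model 30115 (393 bases) was called higher at 7 d only. It stood at 7.23 and 7.08 CPM with GR24 and at 2.59 and 2.71 CPM with acetone at 7 d. The acetone libraries were lower than at 2 d and the GR24 libraries were not, and the groups did not overlap. edgeR's log2 fold change was 1.39 ± 0.315 (edgeR adjusted p = 0.00177), a call that DESeq2 did not make at 1.39. At 14 d its 0.704, 1.49 and 2.06 CPM with GR24 overlapped 1.45, 1.40 and 1.43 CPM with acetone, a log2 fold change of -0.01 ± 0.413 (edgeR adjusted p = 0.993). Whether the effect at 7 d differs from those at 2 d and 14 d was not tested.

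Model 343036 (320 bases) was higher with GR24 at 1 h and lower at later times. Its levels at 1 h were 44.2, 37.1 and 44.7 CPM with GR24 and 22.9 and 16.5 CPM with acetone. At 2 d they were 10.6 and 8.14 CPM with GR24 and 14.6, 14.7 and 14.2 CPM with acetone. By 2 d the order of the groups had turned, without overlap, but the log2 fold change of -0.61 ± 0.189 did not pass (edgeR adjusted p = 0.117).

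At 7 d model 343036 stood at 6.69 and 6.48 CPM with GR24 and at 16.8 and 16.4 CPM with acetone. At 14 d it stood at 13.7, 13.6 and 14.6 CPM with GR24 and at 25.5, 26.2 and 30.5 CPM with acetone. All GR24 libraries were below all acetone libraries at both times. It fell with GR24 by a log2 fold change of -1.36 ± 0.220 at 7 d (edgeR adjusted p = 8.42e-06) and -1.0 ± 0.121 at 14 d (edgeR adjusted p = 1.91e-05). The shared effect was -1.0 ± 0.0925 (edgeR adjusted p = 2.2e-08), a call made under 20 of 20 alternatives.

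Model 335317 (353 bases), whose name ends in the same contig name, had another course. It stood at 5.98, 4.89 and 6.13 CPM with GR24 and at 2.69 and 1.95 CPM with acetone at 1 h. At 14 d it stood at 9.05, 11.2 and 11.1 CPM with GR24 and at 11.6, 12.0 and 9.32 CPM with acetone. Its libraries overlapped at 14 d, where the log2 fold change was -0.08 ± 0.163 (edgeR adjusted p = 0.897), and the shared effect of 0.12 ± 0.129 did not pass (edgeR adjusted p = 0.630).

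Model 345070 (456 bases) was called lower at 14 d. Its levels at 1 h were 172, 147 and 127 CPM with GR24 and 77.3 and 61.3 CPM with acetone. At 2 d they were 9.02 and 12.0 CPM with GR24 and 8.96, 9.36 and 9.22 CPM with acetone. Both groups were far below their 1 h level and overlapped, with a log2 fold change of 0.26 ± 0.204 (edgeR adjusted p = 0.574).

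At 14 d the levels of model 345070 were 8.85, 13.3 and 13.5 CPM with GR24 and 21.7, 24.4 and 28.2 CPM with acetone. The acetone libraries stood higher than at 2 d and above every GR24 library. On the log2 scale the fold change was -1.08 ± 0.152 (edgeR adjusted p = 0.000192). The effect at 14 d minus that at 2 d was -1.34 ± 0.262 (edgeR adjusted p = 0.0129). Without GR24 2 d replicate 3 it was -1.08 and not past the threshold. For this difference between times 0 of the 26 models were called higher and 2 lower, against 0.420% and 0.420% of all models tested. Here too the acetone mean at 14 d had been bounded by the selection. At an unadjusted p under 0.05, 1 model was higher and 4 lower, where 2107 of all 15479 models tested passed in either direction. DESeq2 called 0 of the models higher and 2 lower.

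The 17 models with neither a call at a later time nor a shared effect had log2 fold changes between -1.27 and 1.27 at 2 d, between -0.67 and 1.03 at 7 d and between -0.62 and 0.35 at 14 d. The numbers tested were 16, 14 and 15, and 10, 9 and 12 of these lay within 0.5 of 0. Standard errors ran from 0.0847 to 0.660, so a change of 2-fold could not be told from none in those with the fewest reads. Models 342847, 17020 and 89828 had fewer than 400 reads over the 25 libraries, and the first was tested at no single later time.

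Of these 17 models, 211853 and 93127 were nearest to a call at 2 d. Model 211853 had 6.16 and 5.92 CPM with GR24 and 2.20, 3.22 and 3.58 CPM with acetone, a log2 fold change of 1.02 ± 0.288 (edgeR adjusted p = 0.0821). Model 93127 had 5.15 and 4.62 CPM with GR24 and 2.20, 1.56 and 3.25 CPM with acetone, a log2 fold change of 1.10 ± 0.346 (edgeR adjusted p = 0.12). Their groups did not overlap, and both were called without a filter on low counts. At 7 d model 140177 had 6.14 and 8.27 CPM with GR24 and 12.4 and 10.2 CPM with acetone, a log2 fold change of -0.67 ± 0.240 (edgeR adjusted p = 0.0931).

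In the root set the models lay mostly lower in the libraries titled root exudates. Of 22 models tested, edgeR called 1 higher and 8 lower against the titled controls, where 7.46% of all models tested were called higher and 7.75% lower. As shares of the models tested these were 4.55% and 36.4%. The median log2 fold change was -0.75, beside -0.01 for all models tested. Without no-roots replicate 2 the higher count was 0, and the lower count was 4 without roots replicate 2 and 5 without no-roots replicate 1. The sum over the 26 models was 167 to 185 CPM in the titled root exudate libraries and 279 and 411 CPM in the titled controls.

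The model furthest apart was 34882 (411 bases). It stood at 1.78, 1.90 and 1.35 CPM in the titled root exudate libraries and at 78.0 and 35.2 CPM in the titled controls. In the time course it never exceeded 4.73 CPM in any library, so that the titled controls stand above all other 23 libraries. Its log2 fold change was -5.02 ± 0.444 (edgeR adjusted p = 0.00115). Without roots replicate 1 it was -5.09 and not past the threshold.

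Model 96153 had 0.273, 0.317 and 1.59 CPM in the titled root exudate libraries and 15.2 and 7.38 CPM in the titled controls. Model 349160 had 13.8, 11.4 and 9.79 CPM against 51.3 and 32.3 CPM. In both models the groups did not overlap. The log2 fold changes were -3.79 ± 0.584 for 96153 (edgeR adjusted p = 0.00435) and -1.78 ± 0.223 for 349160 (edgeR adjusted p = 0.000626), and both calls were made under 10 of 10 alternatives. Model 209450, at 0.410, 0 and 0.367 CPM against 1.67 and 0.403 CPM, had too few reads to be tested there.

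Model 343036 was the one called higher, with 5.46, 9.99 and 8.44 CPM in the titled root exudate libraries and 2.82 and 1.61 CPM in the titled controls. The log2 fold change was 1.88 ± 0.363 (edgeR adjusted p = 0.00562), and without no-roots replicate 2 it was 1.54 and not past the threshold. For models 96153, 349160 and 343036 the direction in the root set, by the titles, was opposite to the direction with GR24 at 14 d. By the column headings of the root table it would be the same.

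Model 24579 had 1.78, 0.634 and 1.71 CPM in the titled root exudate libraries and 5.38 and 6.31 CPM in the titled controls, without overlap. edgeR's log2 fold change was -1.98 ± 0.396 (edgeR adjusted p = 0.00688), and without no-roots replicate 2 it was -1.86 and not past the threshold. Model 32099 had 2.46, 2.54 and 4.40 CPM against 10.1 and 5.77 CPM, also without overlap. Its log2 fold change of -1.26 ± 0.348 (edgeR adjusted p = 0.0316) was not called by DESeq2 (-1.26), without roots replicate 2 (-1.14) or without no-roots replicate 1 (-0.80).

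Model 120537 had 17.3, 13.5 and 19.2 CPM in the titled root exudate libraries and 34.9 and 25.6 CPM in the titled controls. Its log2 fold change of -0.79 ± 0.194 (edgeR adjusted p = 0.0185) lost its call without roots replicate 2 (-0.66) and without no-roots replicate 1 (-0.55). Model 337533 had 11.7, 8.88 and 6.85 CPM against 17.2 and 19.3 CPM. In both models the groups did not overlap. For 337533 the log2 fold change of -0.94 ± 0.231 (edgeR adjusted p = 0.0193) was called under 5 of 10 alternatives. It was lost with the replicate block (-0.76) and without roots replicate 2 (-0.91), roots replicate 3 (-0.75), no-roots replicate 1 (-1.01) or no-roots replicate 2 (-0.85).

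Model 33865 had 4.92, 3.96 and 6.97 CPM in the titled root exudate libraries and 8.46 and 14.1 CPM in the titled controls, again without overlap. Its log2 fold change of -1.01 ± 0.297 (edgeR adjusted p = 0.0411) was not called by DESeq2 (-1.01), without roots replicate 1 (-0.96), roots replicate 2 (-0.85) or no-roots replicate 2 (-0.60). Model 343310, with the highest 1 h ratio, had 2.46, 3.17 and 2.69 CPM in the titled root exudate libraries. It had 3.08 and 4.97 CPM in the titled controls. Its root effect of -0.48 ± 0.347 did not pass (edgeR adjusted p = 0.392), and all 5 of these libraries lay within the range of its later acetone libraries or below it.

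The difference between root and GR24 effects at 14 d, each taken against its own controls, was tested for 24 of the models. It draws on the acetone mean at 14 d, which the selection had bounded. By the sample titles it was called higher for 1 and lower for 7, against 6.39% and 4.97% of all models tested. For model 96153 the difference was -7.44 ± 0.898 (edgeR adjusted p = 0.000106). With the groups as the column headings name them, an alternative chosen after seeing the data, 3 models were called higher and 0 lower, against 6.30% and 7.14% of all models. These 3 were 34882 at 4.67, 345070 at 1.93 and 32099 at 1.88, while 96153 was at 0.14 and 349160 at -0.16. At an unadjusted p under 0.05, 8 models were higher and 1 lower by the headings. Of all 15390 models tested, 4191 passed in either direction. DESeq2 was not run with the headings. The root set differs from the time course also in the medium surface and the number of spores, so the agent and the culture cannot be told apart in this difference.

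**Figure D4:**
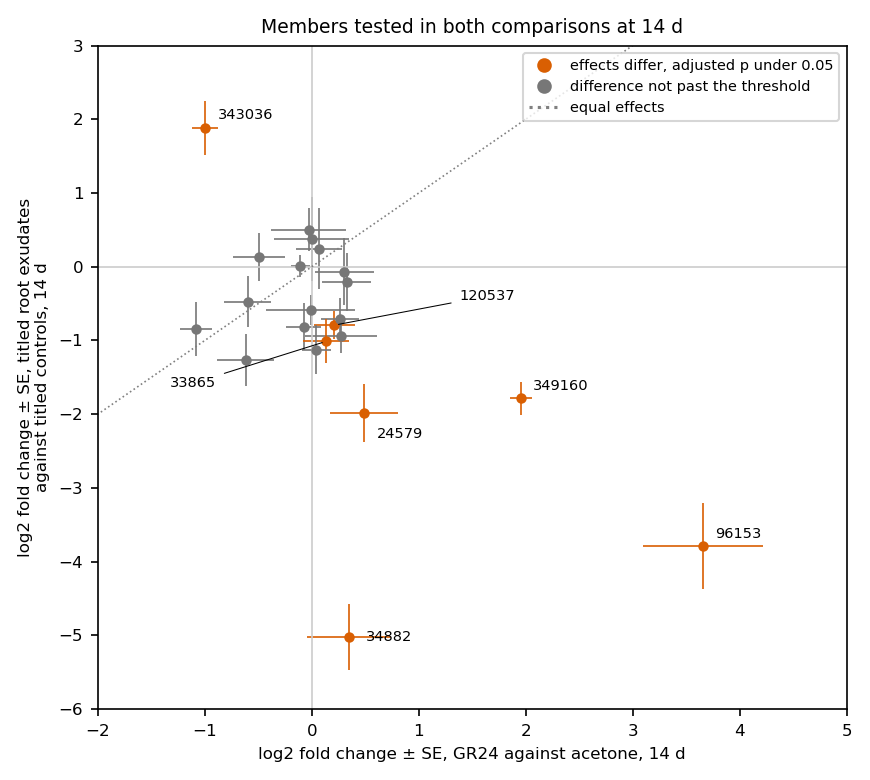
Log2 fold change ± SE of titled root exudates against titled controls (vertical axis) against that of GR24 and acetone (horizontal axis), both at 14 d, for the models tested in both. Orange marks models whose effects differ at an adjusted p under 0.05, and the dotted line marks equal effects. Models 96153 and 349160 lie at lower right, 343036 at upper left and 34882 at the bottom near a GR24 effect of 0.

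Described models that met the same numerical conditions numbered 131 and are set beside the 26 as a description. They were called higher at all 3 later times in 8 of 131, against 3 of 26, and at neither direction at any later time in 85 of 131, against 20 of 26. At 2 d 28 of 125 tested were higher and 0 lower, at 7 d 18 of 122 higher and 6 lower, and at 14 d 12 of 122 higher and 7 lower. In the root set 8 of 116 were higher and 39 lower, or 6.90% and 33.6%. Their median log2 fold changes were 0.21, 0.05 and 0.03 at the later times and -0.50 in the root set. The described models had a median of 25.6 CPM after 1 h of GR24, against 10.9 CPM for the undescribed ones, and the difference between the sets was not tested.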

How the data were processed

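Polyadenylated RNA of germinating spores was sequenced, per the labels' protocols, in 30 samples of 10 groups, of which 25 libraries were used; not analysed here were 5 samples, namely replicate 1 of acetone at 1 h, replicate 2 of GR24 at 2 d, replicates 1 of GR24 and 3 of acetone at 7 d, and replicate 3 without roots. Per the file headers, the authors' tables give for each of 30282 models of the JGI catalogue Gloin1 total gene reads and unique gene reads (read counts with and without reads matching several models), the RPKM and the gene length in bases. The deposited RPKM equals total gene reads scaled by length and by the library's sum of these counts. Aligner and genome build: not given in the sources used here. Groups follow the sample titles.

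CPM is total gene reads per 1e+06 of the column sum. The test on total gene reads was that of edgeR 4.0.16, run in R 4.3.3 (filterByExpr, TMM scaling, robust 2-sided quasi-likelihood test) over all models, with Benjamini-Hochberg adjustment at 0.05. Each comparison was fitted on its own libraries. Joint fits were made for the effect shared by 2 d, 7 d and 14 d, for 14 d minus 2 d and for roots minus GR24. The SE of an edgeR log2 fold change was derived as its absolute value divided by the square root of the quasi-likelihood F statistic. The alternatives were DESeq2 1.42.0, relative log expression scaling, no low-count filter, unique gene reads, a replicate block, each library left out, and other bounds for the selection. Root groups named by the column headings were added after seeing the data. The steps were tested on simulated data. None of 20 library pairs was a duplicate, with a chi-square per degree of freedom of 2.66 to 9.09. Floors of 3 reads cover counting error only.

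The models, the lists and the comparisons were chosen with earlier results of these data known. Since the selection found no more than 30 models, all could be named. None of the protein IDs matched the reference gene table, so no sequence is shown.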

Additional observations from a re-analysis of the deposited data

Results flagged for a closer look

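For 10 of the effects above, the effect of GR24 or roots differed between conditions by an edgeR test of the difference itself. From 2 d to 14 d the GR24 effect changed by a log2 difference of -0.75 in model 349160 and of -1.34 in model 345070, and both calls were lost without GR24 2 d replicate 3. The difference between root and GR24 effects at 14 d, by the sample titles, was -7.44 in model 96153, -3.74 in model 349160, -5.38 in model 34882, -2.47 in model 24579 and 2.88 in model 343036. These 5 calls were made under each of 16 alternatives that kept the sample titles. With the root groups as the column headings name them, only that of 34882 was made, at 4.67, and the values were 0.14 for 96153, -0.16 for 349160, 1.49 for 24579 and -0.89 for 343036. In model 34882 the GR24 effect at 14 d was 0.35 ± 0.391, and its titled control libraries stood at 78.0 and 35.2 CPM.

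By the titles the difference was -3.47 ± 0.886 in model 209450, whose root set holds 6 reads in the titled root exudate libraries. Without no-roots replicate 1, at 1.67 CPM, it was -2.13 and not past the threshold. It was -1.0 ± 0.300 in model 120537, a call made under 9 of 16 alternatives. There it was lost without GR24 14 d replicate 2 (-1.05) or replicate 3 (-0.76), acetone 14 d replicate 1 (-0.90) or replicate 3 (-1.0), roots replicate 1 (-1.03) or replicate 2 (-0.87), or no-roots replicate 1 (-0.76). It was -1.14 ± 0.366 in model 33865, a call made under 7 of 16 alternatives, with values from -0.73, without no-roots replicate 2, to -1.20, without acetone 14 d replicate 2, where it was lost.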

How the results depend on the processing

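Counts of models called changed by more than 1.5 times in few settings. The higher count at 2 d, 3, was 5 without a low-count filter, and the higher count at 7 d, 4, was 2 with DESeq2. With each library left out in turn, higher counts ran from 1 to 4 at 2 d, 4 to 7 at 7 d, 2 to 3 at 14 d, 0 to 1 for roots and 4 to 6 for the shared effect. Lower counts ran from 1 to 2 at 7 d, 4 to 8 for roots, 0 to 3 for 14 d minus 2 d and 5 to 8 for roots minus GR24. The number of models selected was 24 to 34 without each 1 h library, and fewer of the 26 were among them: 18 without acetone 1 h replicate 3, 21 without GR24 1 h replicate 1 and 23 to 25 without each of the others. It was 28 with TMM-scaled CPM, 33 without bounds on acetone at 14 d, 19 with an offset of 0.5 CPM and 19 with a minimum of 5 CPM. Where a group was left with 1 library, that library was assumed to vary like the others. For models called in a comparison under any setting, 684 values kept their direction and side of the threshold, 61 lost the call, 27 gained one and 13 turned; other models, not counted here, also changed sign in some settings. One that turned was model 34882 at 7 d, at 1.03 with all libraries, from -0.18 without GR24 7 d replicate 2 to 1.66 without replicate 3. Another was 345070 for roots minus GR24, from -0.23 without no-roots replicate 2 to 0.96 without no-roots replicate 1. The other 11 came from naming the root groups by the column headings, where the roots minus GR24 counts, 1 higher and 7 lower, became 3 and 0. These values were 0.14 for 96153, 0.67 for 337533, 0.58 for 120537, 0.16 for 209450, 1.88 for 32099, 1.08 for 340732, 0.44 for 20209, -0.89 for 343036, 4.67 for 34882, 0.88 for 33865 and 1.49 for 24579.

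The replicate block gave 3 models higher at 2 d, 3 higher and 2 lower at 14 d, 1 higher and 7 lower for roots, 5 higher and 1 lower for the shared effect, 2 lower for 14 d minus 2 d and 1 higher and 8 lower for roots minus GR24. At 7 d the groups share 1 number, so no block could be fitted there. The main fits did not pair samples by equal numbers. Deviations of equally numbered samples from their group means correlated across models at 0.0211, -0.0552 and -0.0094 at 14 d. At 2 d they correlated at -0.1537 and 0.0281. With 2 or 3 libraries per group such values cannot decide whether the samples were paired. Depth limits the models with the fewest reads, 209450, 342847, 17020 and 89828.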
